A study of Homo sapiens with 8 samples.

Results

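Complement genes were examined in PNT2, an immortalized cell line established from normal human prostatic epithelium, after knockdown of ESRP1 and ESRP2. The set was listed by name and comprised the central component C3, the proteases C1R, C1S and CFB, the soluble regulators C4BPB and CFI, and the membrane regulators CD46, CD55 and CD59. A member was measured when an array row was annotated to its symbol alone, and 7 of the 9 listed genes met this rule, giving 7 of 18495 rows. CD46 and CD59 had rows only in common with a second gene, and those rows are described separately because their signal cannot be assigned to either gene. The members were selected on their role in complement and on their siESRP minus siGFP intensity differences, which were already known, so each difference is given as a description, without a p-value, and nothing is concluded from the limma calls of members.

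The series compared 2 groups of 4 arrays: cells transfected with small interfering RNA (siRNA) to ESRP1 together with ESRP2 (siESRP), and controls whose siRNA targeted GFP, a jellyfish protein that the cells lack (siGFP). Both groups were the same cell line in the same serum-containing medium, with no other allele or agent named in the labels. The 2 targets were depleted together, so their effects cannot be separated, and the time after transfection is not given in the sources used here. RNA was read on Affymetrix human exon arrays, and the deposited table holds 1 intensity per gene-level row, so splicing was not measured.

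Complement is a cascade of plasma and cell-surface proteins that marks targets for clearance and can lyse cells. Antibody or lectins start it through C1r, C1s and the mannose-binding lectin proteases, and the alternative pathway amplifies it through factor B, each arriving at cleavage of C3. Host cells are protected by C4b-binding protein and factor I in the fluid phase and by CD46, CD55 and CD59 on the membrane. The liver makes most circulating complement, and epithelial cells make C3 and factor B locally, under the control of inflammatory cytokines.

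To show what precedes the genes that differed, the 250 bases upstream of the outermost RefSeq start (GRCh38.p14) are given for C4BPB and CD55, which were lower in siESRP, and for CFB and C1R, which were higher. Of the listed genes, 7 were matched in the RefSeq promoter table, and C3 and C1S were not. The windows lie at chr1:207088610-207088859 (plus strand), chr1:207321428-207321677 (plus strand), chr6:31945845-31946094 (plus strand) and chr12:7092446-7092695 (minus strand). Capitals mark matches, on either strand, to the interferon-stimulated response element GAAANNGAA, the gamma-activated site TTCNNNGAA, the C/EBP core TTGCNNAA, the AP-1 site TGANTCA, the GC box GGGCGG and the NF-kappaB consensus, and on the sense strand to TATAAA.
C4BPB: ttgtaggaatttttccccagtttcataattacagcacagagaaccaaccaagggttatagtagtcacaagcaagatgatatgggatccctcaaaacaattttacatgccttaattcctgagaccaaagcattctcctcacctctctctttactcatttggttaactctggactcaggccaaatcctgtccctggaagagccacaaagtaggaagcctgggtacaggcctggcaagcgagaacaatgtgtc
CD55: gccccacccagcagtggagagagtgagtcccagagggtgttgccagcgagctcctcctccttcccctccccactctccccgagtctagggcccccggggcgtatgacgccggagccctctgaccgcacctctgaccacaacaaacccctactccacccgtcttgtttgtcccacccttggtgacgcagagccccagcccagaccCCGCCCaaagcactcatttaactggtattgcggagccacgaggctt
CFB: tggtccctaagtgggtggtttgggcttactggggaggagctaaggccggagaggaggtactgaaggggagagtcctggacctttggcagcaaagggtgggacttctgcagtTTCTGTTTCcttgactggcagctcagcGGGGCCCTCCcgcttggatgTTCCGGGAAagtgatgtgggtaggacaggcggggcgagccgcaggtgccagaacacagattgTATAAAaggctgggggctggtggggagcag
C1R: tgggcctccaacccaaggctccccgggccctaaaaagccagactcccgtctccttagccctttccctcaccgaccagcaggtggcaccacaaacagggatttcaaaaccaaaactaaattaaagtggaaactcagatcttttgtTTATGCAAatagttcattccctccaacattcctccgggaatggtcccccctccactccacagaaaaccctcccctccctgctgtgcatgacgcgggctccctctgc

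The CFB window held the most kinds of match among the printed sequences. An interferon-stimulated response element letter match lay on the minus strand at −139 to −131 from the start, an NF-kappaB consensus match at −112 to −103, a gamma-activated site match at −92 to −84 and TATAAA at −30 to −25, and none overlapped another. The C1R window held 1 C/EBP match on the minus strand at −106 to −99, the CD55 window 1 GC box on the minus strand at −46 to −41, and the C4BPB window held 0 matches to these 7 motifs. The windows of other annotated starts gave other matches: those of C4BPB starts 2 and 3, counted from the outermost, each held 1 interferon element match and that of start 3 also 1 gamma-activated site match, while C1R start 2 held 1 gamma-activated site and 1 C/EBP match. Over 35116 RefSeq promoter windows of the same length, the shares with a match were 6.88% for the interferon element, 6.57% for the gamma-activated site, 9.05% for the C/EBP core, 6.57% for AP-1, 42.6% for the GC box, 6.80% for TATAAA and 9.96% for NF-kappaB. A letter match is a description of the sequence and not a measured binding site.

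Array medians of deposited intensity ran from 233 to 286, and the values below are intensities after quantile normalization. ESRP1 itself fell by 76.2%, from 2439 ± 169 to 582 ± 66.9 (SD, n = 4 each, limma adjusted p = 6.58e-05). The row shared by ESRP2 and NFATC3 fell by 72.1%, from 531 ± 33.4 to 148 ± 27.4 (SD, n = 4 each, limma adjusted p = 0.000336). Epithelial markers were bright, with KRT8 at 6690 ± 411 in siGFP (SD, n = 4), and the defining leukocyte marker PTPRC and the hepatocyte marker ALB were at 10.7 and 14.4 in siGFP. The other leukocyte markers had siGFP means of 551 for CD68, 154 for CSF1R, 102 for CD14, 23.5 for LCP1 and 6.97 for CD3E. Those of the other hepatocyte markers were 207 for APOA1, 60.9 for TTR, 26.1 for APOB and 10.8 for AHSG. Nothing in the labels tells separate cultures from repeats of 1 culture, so p-values reflect the spread among these arrays, part of which may be technical.

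Of the 7 measured members, C4BPB and CD55 were lower in siESRP, C3, CFB and C1R were higher, and C1S and CFI were dim in both groups. Of these, 5 of 7 passed the limma threshold of adjusted p under 0.05 (3 higher, 2 lower), where 20.2% of all rows did (10.9% higher and 9.31% lower). The share called was 28.4% among rows of mean intensity at least 100 and 5.49% among dimmer rows. For the same 5 genes no siESRP array fell within the normalized siGFP range, as in 24.6% of all rows (12.6% higher and 12.0% lower). Nothing is read from these shares, because the same contrast was known when the set was chosen. The count of 5 includes C1R, which passed in only 5 of 15 alternatives and missed the threshold when any 1 array other than siESRP replicate 3 was left out, CFB, which missed it in 4, and CD55, which missed it in 1. Among the members the log2 difference ran from −1.41 to 0.52 with a median of −0.07, and over all rows the median was −0.02. With 7 rows the member median is the value of 1 row, here CFI, which was dim in both groups. In RNA from a whole culture, fewer cells that express a gene and less RNA per cell cannot be told apart.

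**Figure D1:**
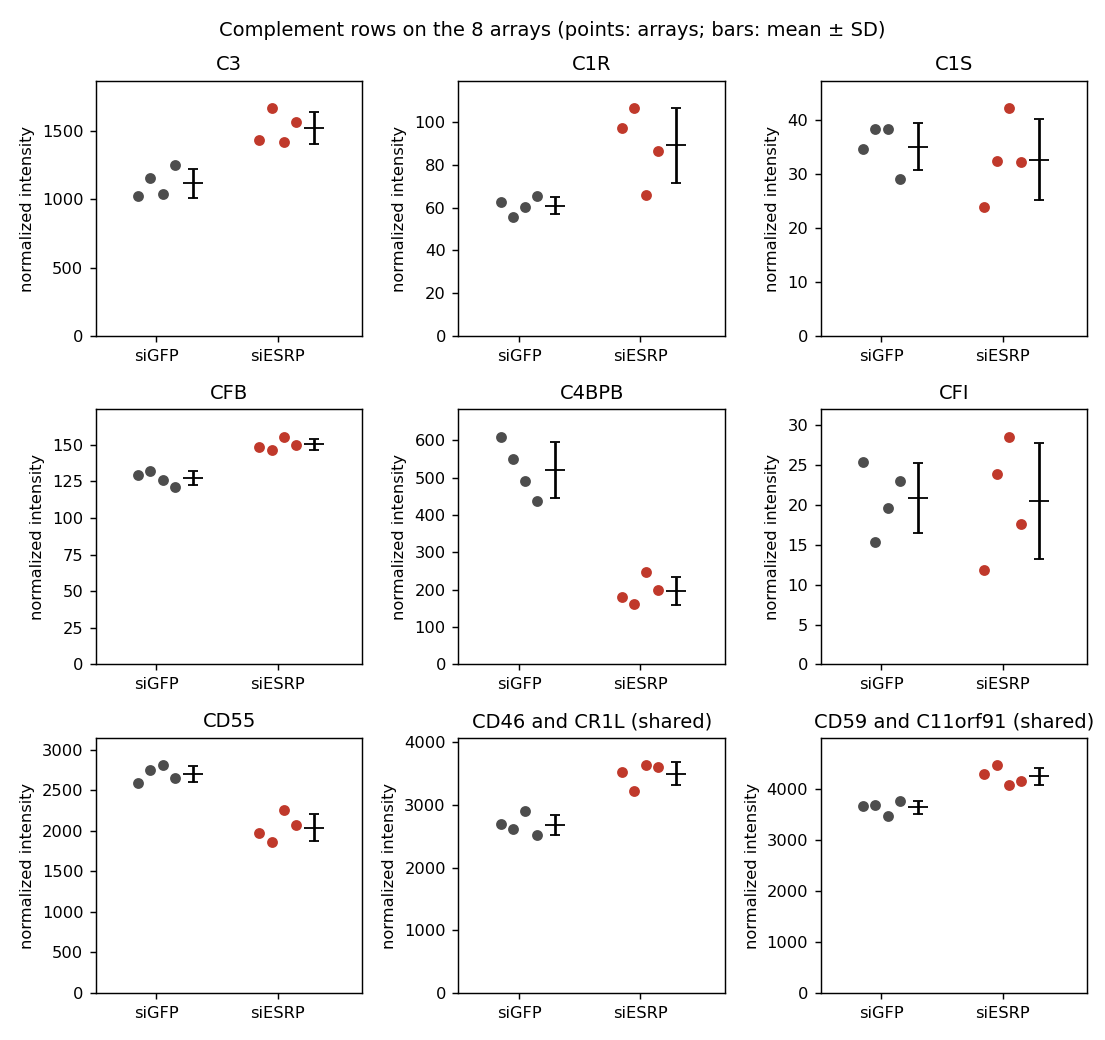
Quantile-normalized intensity (linear axis from 0) of the 7 measured members and of the rows shared by CD46 and CR1L and by CD59 and C11orf91, with 1 point per array and bars for the mean ± SD of 4 arrays. C4BPB and CD55 sit lower in siESRP, C3, CFB, C1R and both shared rows sit higher, and the groups overlap for C1S and CFI.

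C3, the component on which the pathways converge, was higher after the knockdown. Its intensities were 1022, 1159, 1036.5 and 1249 in siGFP and 1437, 1666, 1419.6 and 1566 in siESRP. Every siESRP array was above every siGFP array, and the mean rose from 1117 ± 108 to 1522 ± 116 (SD, n = 4 each). The log2 difference was 0.45 ± 0.09 (SE), or 1.36-fold. Over 15 alternatives, some of which alter only the test and not the estimate, the log2 difference of C3 lay between 0.40 and 0.50.

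CFB, which encodes the protease factor B of the alternative C3 convertase, was slightly higher. Intensities were 129.5, 132, 126 and 121 in siGFP against 149, 147, 155 and 150.1 in siESRP. After quantile normalization the groups were separate and each was tight, with means of 127 ± 4.76 and 150.2 ± 3.73 (SD, n = 4 each). The log2 difference was 0.24 ± 0.04 (SE), or 1.18-fold. On the arrays as deposited the groups overlapped, with 120 to 147 in siGFP and 133 to 171 in siESRP. CFB was not called there (log2 difference 0.19) or with median scaling (0.17). Over 15 alternatives the log2 difference of CFB lay between 0.17 and 0.26. A second row shared by C2 and CFB was dim, at 39.5 ± 11.2 and 30.8 ± 8.02, and its groups overlapped.

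The classical proteases C1R and C1S, whose products form the active unit of C1, lie next to each other on chromosome 12. C1R read 62.5, 55.6, 60.5 and 65.5 in siGFP and 97.4, 106.5, 65.9 and 86.8 in siESRP. Its groups were separated only by the narrow gap between the highest siGFP array and siESRP replicate 3. The means were 61.0 ± 4.15 and 89.1 ± 17.5 (SD, n = 4 each), a log2 difference of 0.52 ± 0.15 (SE). Over 15 alternatives the log2 difference of C1R lay between 0.41 and 0.67, the highest value being that without siESRP replicate 3.

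C1S stayed dim, with intensities of 34.6, 38.25, 38.25 and 29.1 in siGFP and 23.9, 32.4, 42.1 and 32.1 in siESRP. The groups overlapped, and the means were 35.1 ± 4.31 and 32.6 ± 7.46 (SD, n = 4 each). For rows with a group mean under 50, means are printed, for some cell type markers in siGFP alone. No fold or log2 difference is printed for rows under 50, apart from the member medians. This limit was set for this text, because the background of the arrays was not measured here. CFI, the protease that inactivates C3b and C4b with the help of cofactors, was dimmer still, at 20.8 ± 4.34 in siGFP and 20.5 ± 7.26 in siESRP. The CFI arrays ran from 15.4 to 25.4 in siGFP and from 11.9 to 28.5 in siESRP, so the siESRP range enclosed the siGFP range.

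C4BPB, the beta chain of C4b-binding protein, which inhibits the classical and lectin pathways, showed the largest difference among the members. Intensities were 609, 549.5, 490.4 and 436 in siGFP and 180.1, 161, 246 and 198 in siESRP. All siESRP arrays were far below all siGFP arrays, and the mean fell by 62.3%, from 521 ± 74.6 to 196.5 ± 36.5 (SD, n = 4 each). The log2 difference was −1.41 ± 0.16 (SE) and lay between −1.55 and −1.32 over 15 alternatives. The alpha-chain gene C4BPA is the next gene on chromosome 1 and was measured at 55.7 ± 7.96 in siGFP and 45.8 ± 4.51 in siESRP (SD, n = 4 each, limma adjusted p = 0.155). Because C4BPA was this dim, its values were not set against those of C4BPB.

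CD55, the GPI-anchored decay-accelerating factor that dissociates C3 convertases, was lower in siESRP. Its arrays read 2592, 2749, 2806 and 2643 in siGFP and 1971, 1857, 2252 and 2069 in siESRP. No array overlapped between groups, and the mean fell by 24.5%, from 2698 ± 97.7 to 2037 ± 167 (SD, n = 4 each). The log2 difference of CD55 was −0.41 ± 0.07 (SE) and lay between −0.45 and −0.36 over 15 alternatives.

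The row shared by CD46, a cofactor for factor I on the membrane, and CR1L moved the other way from CD55. It read 2705, 2624, 2900.2 and 2517 in siGFP and 3529, 3229.8, 3635 and 3605 in siESRP. The groups did not overlap, and the log2 difference of this row was 0.38 ± 0.06 (SE). The row shared by CD59, the GPI-anchored inhibitor of the membrane attack complex, and C11orf91 read 3662, 3678.5, 3464 and 3765 in siGFP and 4296, 4461, 4068 and 4143 in siESRP. It too was higher on every siESRP array, with a log2 difference of 0.22 ± 0.05 (SE). Which gene of each pair carried the signal was not tested.

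**Figure D2:**
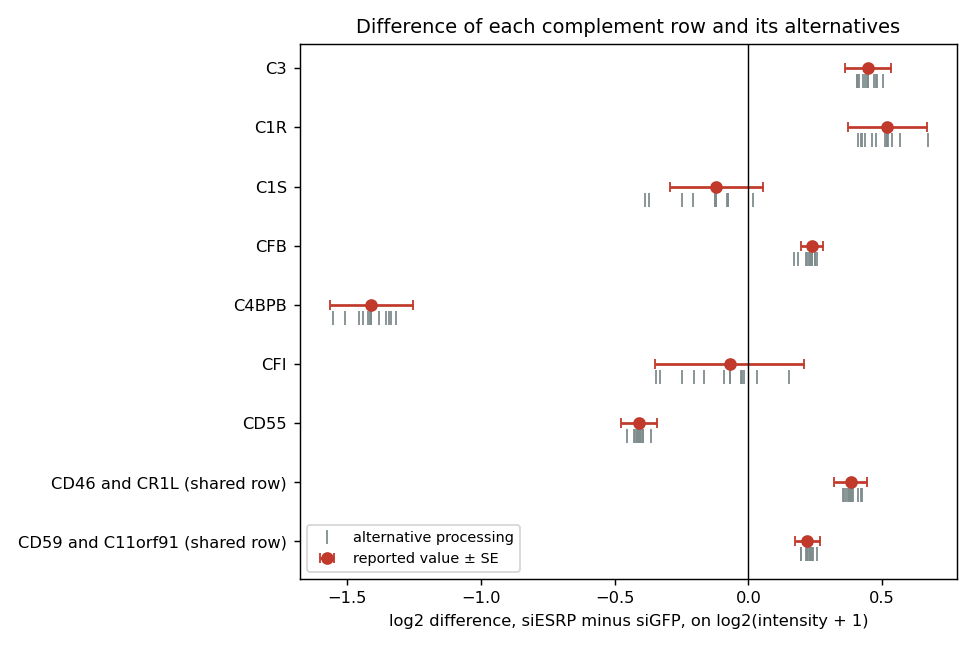
Log2 difference (siESRP minus siGFP, on the log2(intensity + 1) scale) of each member and of 2 shared rows. Circles with bars are the reported value ± SE and grey ticks are the alternatives, which stay on 1 side of 0 for C3, C1R, CFB, C4BPB, CD55 and both shared rows and fall on both sides for C1S and CFI.

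The order of the siESRP arrays was compared between rows. Replicate 3 lay nearest to the siGFP mean, and replicate 2 farthest from it, for C4BPB, CD55, C1R, C3 and the row shared by CD59 and C11orf91. ESRP1 had the same order, with its highest siESRP intensity in replicate 3 (660.2) and its lowest in replicate 2 (499). CFB and the row shared by CD46 and CR1L had the opposite order, nearest in replicate 2 and farthest in replicate 3, and for the row shared by ESRP2 and NFATC3 replicate 3 was the farthest. The share of all rows with either order was not computed, so the order is not read as particular to the members. Over the whole table, 3793 rows were called without siESRP replicate 3. Without siESRP replicates 1, 2 and 4 the counts were 2719, 3005 and 2907. Whether knockdown depth had a part in the members' levels was not tested.

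CD46, C4BPB and CD55 belong to the regulators of complement activation gene cluster on chromosome 1. In RefSeq order from C4BPB, the genes were C4BPB (log2 difference −1.41), C4BPA, CD55 (−0.41), CR2, CR1 and the row shared by CD46 and CR1L (0.38). The receptor genes CR2 and CR1 were dim, with siGFP and siESRP means of 22.1 and 23.1 for CR2 and 34.4 and 32.9 for CR1. The nearest measured gene on the other side of C4BPB, PFKFB2, which encodes a regulator of glycolysis, had a log2 difference of −0.27 (limma adjusted p = 0.0771).

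At the other members' positions, LPCAT3, a lysophospholipid acyltransferase gene near C1S on chromosome 12, rose 1.47-fold, from 1406 ± 72.5 to 2063 ± 143 (SD, n = 4 each, limma adjusted p = 0.00159). C1RL-AS1, near C1R, was called higher with means of −1.08 and 24.2, both under 50, and lost the call in 7 of 14 alternatives, 6 of them without 1 array. The neighbours of C3 were not called: TNFSF14 had a log2 difference of −0.30 (limma adjusted p = 0.385) and GPR108 one of −0.12 (limma adjusted p = 0.384). The neighbours of CFB were not called either, with −0.44 for ZBTB12 (limma adjusted p = 0.0735) and −0.10 for SKIC2 (limma adjusted p = 0.707). ZBTB12 passed the threshold in 3 of 15 alternatives: without siGFP replicate 2, with the dimmest rows left out and with a trended and robust eBayes. Beside CFI, PLA2G12A (0.02) and GAR1 were not called. GAR1 had means of 130 in siGFP and 36.6 in siESRP, and its arrays within a group differed widely (SD 128 in siGFP). Both neighbours of CD59 rose, FBXO3 by 1.45-fold (limma adjusted p = 0.00471) and KIAA1549L by 1.65-fold (limma adjusted p = 0.00823). FBXO3 was not called on the arrays as deposited (limma adjusted p = 0.0728), and KIAA1549L was not called with the replicate block. CD34, on the far side of CD46, was dim, at 26.0 and 17.1.

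The rest of the complement pathway was mostly dim in these cells. Of 49 further genes listed, 37 had a row of their own, and 1 was higher, 1 was lower and 35 were not called, where 20.2% of all rows and 5.49% of rows of mean intensity under 100 were called. Their median log2 difference was −0.08, against −0.02 over all rows. In 33 of the 37 both group means were under 100, and in 22 both were under 50, while 6417 of all 18495 rows had both means under 100.

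The called genes were 2 proteins that bind C1q but act mainly inside the cell. CALR, the endoplasmic reticulum chaperone calreticulin, rose 1.24-fold, from 3277 ± 191 to 4074 ± 108 (SD, n = 4 each, limma adjusted p = 0.00654). C1QBP, a mitochondrial protein also named for binding C1q, fell 1.13-fold, from 6146 ± 254 to 5422 ± 157 (SD, n = 4 each, limma adjusted p = 0.0306). C1QBP was no longer called in 10 of its 15 alternatives, among them each left-out array except siGFP replicate 1 and siESRP replicate 3 (adjusted p up to 0.0748), and CALR in 1, the arrays as deposited.

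By role, 0 of 3 classical pathway genes, 0 of 7 lectin pathway genes, 0 of 2 alternative pathway genes, 0 of 7 terminal genes and 0 of 6 soluble regulators were called by limma. Beside these counts, the shares called were 20.2% of all rows and 5.49% of rows of mean intensity under 100. Both group means were under 100 for most of these genes. At an unadjusted p under 0.05 the counts by role were 0, 0, 1, 0 and 0, and the 1 gene was CFD. Of all 18495 rows, 6038 had an unadjusted p under 0.05, and this count was not split by intensity. The C1q chains had siGFP and siESRP means of 53.0 and 43.4 for C1QA, 46.4 and 49.8 for C1QB and 40.5 and 31.8 for C1QC. FCN3, a lectin that recognizes sugars, had 55.0 and 45.2, COLEC10 38.8 and 37.5, and MASP1 28.4 and 32.1. Factor D (CFD), which cleaves factor B, had means of 54.6 and 37.0 (limma adjusted p = 0.0843), and properdin (CFP), which stabilizes the alternative convertase, had 43.6 and 38.5. Of the terminal genes, C8A, C8G and C8B had log2 differences of −0.07, −0.17 and −0.11. CLU, the soluble terminal-pathway inhibitor clusterin, was 293 ± 18.6 and 289 ± 14.6 (SD, n = 4 each, limma adjusted p = 0.875), and CPN2 had a log2 difference of 0.08. Among receptors that were not called, C5AR1, THBD and C5AR2 had −0.17, −0.31 and 0.11. CFD was called lower in 3 of 14 alternatives: without siGFP replicate 1 (limma adjusted p = 0.0249), on the arrays as deposited and with median scaling.

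**Figure D3:**
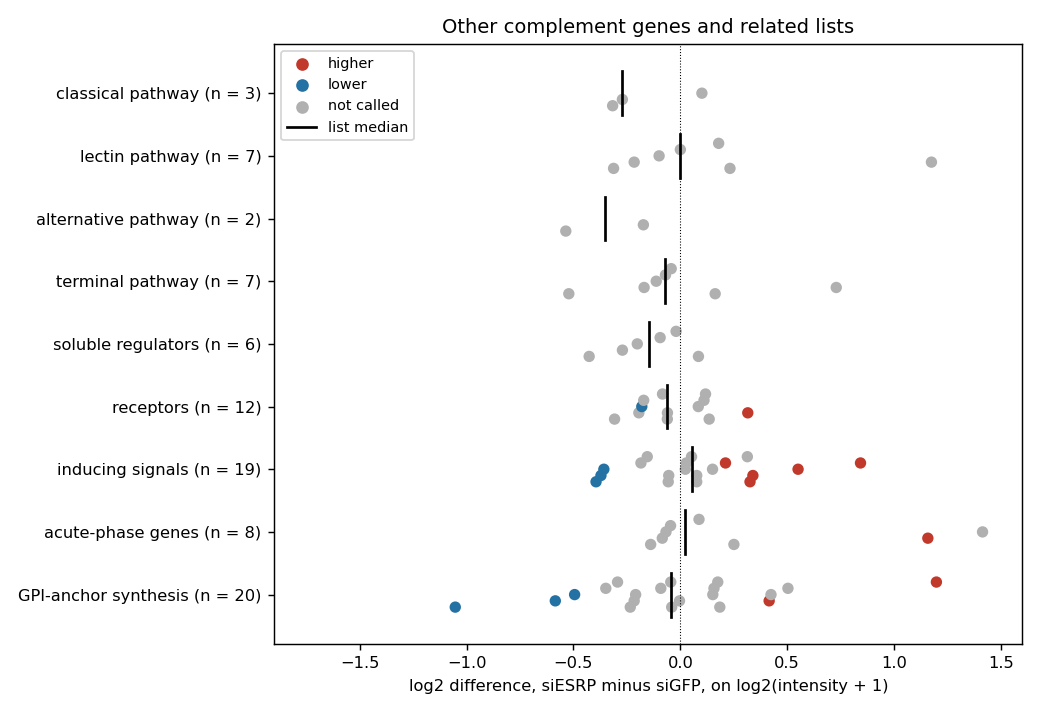
Log2 difference (siESRP minus siGFP, on the log2(intensity + 1) scale) of every gene with its own row in the further complement lists and 3 related lists, coloured by the limma call, with a black line at each list's median. In the complement lists the coloured points are CALR and C1QBP, and the inducing-signal list holds 5 higher and 3 lower genes.

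Genes for signals known to induce complement transcription included 5 that rose and 3 that fell. Of 20 listed, 19 were measured and 11 were not called, so 8 of 19 were called, where 20.2% of all rows and 28.4% of rows of mean intensity at least 100 were. Their median log2 difference was 0.05, against −0.02 over all rows. OSMR, the oncostatin M receptor, rose 1.79-fold, from 958 ± 102 to 1711 ± 56.1 (SD, n = 4 each, limma adjusted p = 0.000715). IL6ST, the shared subunit gp130, rose 1.27-fold (limma adjusted p = 0.0110), and the transcription factor STAT3, which it activates, rose 1.16-fold (limma adjusted p = 0.0130). CEBPD, a C/EBP factor induced in the acute phase, rose 1.25-fold (limma adjusted p = 0.0130), and the interferon-gamma receptor chain IFNGR2 rose 1.46-fold (limma adjusted p = 0.0450).

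The 3 lower genes all encode NF-kappaB subunits. NFKB1 fell 1.28-fold, from 1068 ± 56.4 to 833 ± 23.8 (SD, n = 4 each, limma adjusted p = 0.00321). RELB fell 1.31-fold (limma adjusted p = 0.00888), and RELA fell 1.29-fold (limma adjusted p = 0.0255). IFNGR2 lost its call without any 1 array other than siGFP replicate 2 (adjusted p up to 0.105), and RELA lost it without siGFP replicate 1, 2 or 4 or siESRP replicate 2 or 3 (up to 0.0671). On the arrays as deposited only OSMR and IFNGR2 stayed called, and with the replicate block only OSMR and NFKB1. IL6R (0.03), JAK1 (0.02), JAK2 (0.05), IFNGR1 (−0.18) and IRF1 (−0.05) were not called. IL6 had 2 rows, with log2 differences of −0.15 and −0.01, and neither was called.

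**Figure D4:**
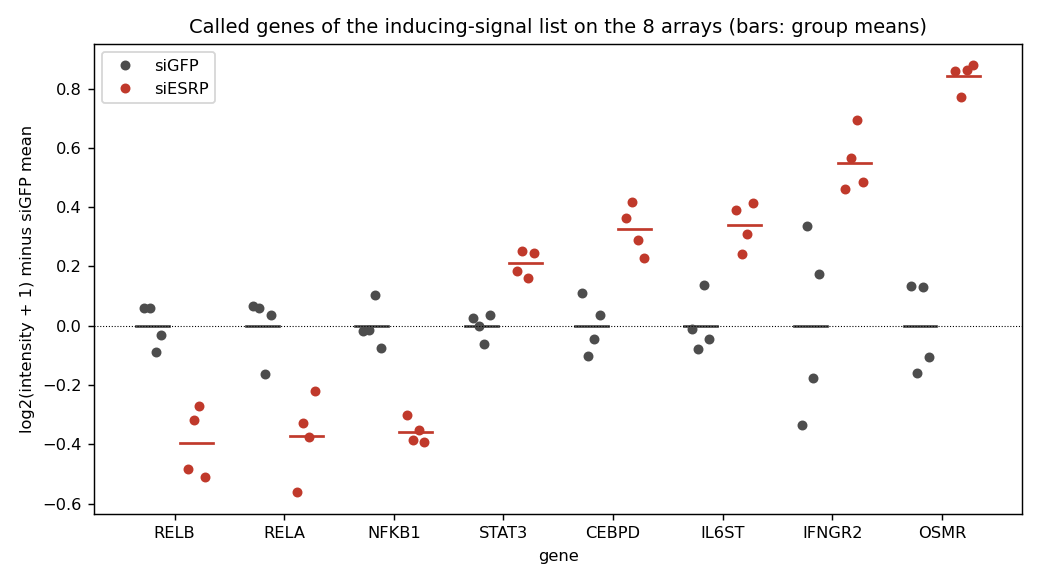
Values of the 8 called inducing-signal genes on each array as log2(intensity + 1) minus the siGFP mean, with bars at the group means. RELB, RELA and NFKB1 lie below 0 on all siESRP arrays and STAT3, CEBPD, IL6ST, IFNGR2 and OSMR lie above 0.

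Of 14 acute-phase genes, which the liver induces together with C3 and factor B, 8 had a row of their own and 1 was called. Beside this count, the shares called were 20.2% of all rows and 5.49% of rows of mean intensity under 100. In 7 of the 8 both group means were under 100. LCN2, the iron-siderophore binding protein lipocalin 2, rose from 78.3 ± 18.2 to 176 ± 41.1 (SD, n = 4 each), 2.23-fold (limma adjusted p = 0.0123, and 0.0857 with the replicate block). The list median was 0.02. SERPINA3 (−0.07), FGB (−0.05) and CRP (means 51.4 and 49.1) were among the 7 not called.

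CD55 and CD59 reach the membrane through a glycosylphosphatidylinositol (GPI) anchor, and 23 genes of anchor synthesis and remodelling were listed. Of these, 20 were measured, with 2 higher, 3 lower and 15 not called, where 20.2% of all rows and 28.4% of rows of mean intensity at least 100 were called. Their median log2 difference was −0.04, against −0.02 over all rows. PIGV, a mannosyltransferase, fell 2.07-fold, from 827 ± 72.4 to 398 ± 38.3 (SD, n = 4 each, limma adjusted p = 0.000514). PIGW, an inositol acyltransferase, had a log2 difference of −0.58 (limma adjusted p = 0.00848) and PIGO fell 1.41-fold (limma adjusted p = 0.00495). PGAP1, the inositol deacylase that remodels the anchor, rose 2.29-fold, from 189 ± 30.5 to 432 ± 22.3 (SD, n = 4 each, limma adjusted p = 0.000658), and PIGX rose 1.33-fold (limma adjusted p = 0.0305). PIGX lost its call without siGFP replicate 1, 2 or 4 or siESRP replicate 1 or 3, with adjusted p up to 0.0801. PIGU (−0.21), PGAP2 (−0.22) and PIGT (0.18) were not called.

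Marker lists of cell types that make complement were given the same description. Beside their counts, the shares called were 20.2% of all rows, 28.4% of rows of mean intensity at least 100 and 5.49% of dimmer rows. Of 5 epithelial markers 3 rose, CDH1 1.42-fold, KRT18 1.22-fold and KRT19 1.17-fold, and KRT8 (0.06) and EPCAM (−0.11) were not called. Their summed intensity was 20991.5 to 22136 in siGFP and 23981 to 24852 in siESRP. Of 6 leukocyte markers CD68, which epithelial cells also express in lysosomes, rose 1.36-fold and CSF1R fell 1.88-fold, and CD14, LCP1 and PTPRC were not called. The leukocyte sum ran from 808 to 912 in siGFP and from 908 to 1112 in siESRP, most of it CD68.

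Of 5 hepatocyte markers only AHSG was called, where 20.2% of all rows and 5.49% of rows of mean intensity under 100 were. AHSG had means of 10.8 and 19.1, both under 50, and lost its call in 11 of 14 alternatives. ALB, APOB, TTR and APOA1 were not called. The hepatocyte sum was 282.5 to 366 in siGFP and 257 to 353 in siESRP. Of 6 fibroblast markers COL1A1 fell 1.38-fold, from 252 ± 15.4 to 182 ± 16.3 (SD, n = 4 each, limma adjusted p = 0.00649), and COL1A2, COL3A1 and PDGFRB were not called. COL1A1 was the only call in the fibroblast list, beside the same shares of rows. The fibroblast sum was 466 to 536.5 in siGFP and 372 to 442 in siESRP. The part of these markers in the members' values was not tested.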

How the data were processed

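The authors deposited linear intensity values for 18495 gene-level rows on 8 arrays. How background was corrected and probes summarized was not given in the sources used here. Columns were quantile normalized, negative values were raised to 0, and log2(value + 1) entered a limma model (limma 3.58.1 in R 4.3.3) of siESRP against siGFP without covariates. P-values were two-sided and adjusted by Benjamini-Hochberg across the whole table, and rows under 0.05 were called. Folds on this scale can understate changes of dim rows. Where arrays lie at or near the floor of 0, folds can also be inflated. The number of arrays limits the precision.

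Names came from GEO's platform annotation, updated by Entrez ID to RefSeq symbols (GRCh38.p14), which 14550 of 14577 rows with 1 symbol matched; 2849 rows had several symbols and 1069 none. Of several rows for 1 gene the brightest was used. The members and lists were chosen with earlier results of these data known. Named genes were the members, the siRNA targets, called genes and the 3 brightest uncalled genes of each list, and the nearest measured neighbours; others were chosen after their values were seen. The interferon motif was shortened by 1 base after matches to the longer form had been seen.

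The model was tested on simulated data with 200 changed rows among 18495, all of mean intensity at least 100. Of these, 53 of 100 with a 1.5-fold change and 91 of 100 with a 2-fold change were recovered, beside 13 false calls. Recovery of dimmer rows was not simulated. The changed rows were a smaller share than the 20.2% called in the data, so recovery there may differ. Alternatives were other scalings, other thresholds, a pseudocount of 16, removal of the dimmest 25% of rows, trended and robust eBayes, the replicate block, the mean of a gene's rows, and leaving out each array. Removal of dim rows, the trended and robust eBayes and the replicate block cannot change a log2 difference, only its test. The same holds for the mean of a gene's rows where the gene has 1 row.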

Additional observations from a re-analysis of the deposited data

Results flagged for a closer look

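In each group of 4 arrays, the gap between 1 array and the other 3 was compared with Dixon's 95% critical value, over 170 groups of values for the members, shared rows and other named genes. It was exceeded in 6, where chance gives about 1 in 20, or 8.5, and in none of the 7 members. In siGFP, replicate 3 was low for CFP (ratio 0.851), RELA (0.849) and KRT19 (0.857). Replicate 3 of siGFP was also the only control array above the floor for C1RL-AS1 (ratio 1). In siESRP, replicate 1 was low for KRT19 (0.917) and replicate 3 was high for COL1A2 (0.903).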

How the results depend on the processing

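No member that passed the threshold changed direction under any alternative, and neither did any other named gene that was called. The median log2 difference of all rows was −0.02 as reported, −0.10 on the arrays as deposited and −0.11 with median scaling. On the arrays as deposited, 1673 rows were called (1045 higher, 628 lower), with 2 members, 1 further complement gene (CFD), 2 inducing signals and 3 GPI-anchor genes, and a member median of −0.33, again the value of the dim row CFI. With median scaling 3057 rows were called (1538 higher, 1519 lower), with 3 members and a member median of −0.35, also the value of CFI. At adjusted p under 0.01 there were 1808 rows, 3 members, 1 further complement gene, 3 inducing signals and 0 acute-phase genes, where limma at 0.05 called 1. With at least 1.5-fold there were 1309 rows (866 higher, 443 lower), 1 member, 0 further complement genes (2 were called by limma without this minimum), 1 inducing signal and 2 GPI-anchor genes. Leaving out the dimmest rows gave 1 further complement gene and a member median of 0.24, since CFI and C1S were then not tested. The trended and robust eBayes called 2 acute-phase genes. Correlations of deviations between same-numbered arrays were 0.15, 0.09, −0.27 and −0.02. Between differently numbered arrays they ran from −0.35 (siGFP 4 with siESRP 1) to 0.51 (siGFP 3 with siESRP 1). With 4 arrays per group, these values cannot tell whether same-numbered arrays were pairs, and the labels give only the number. With the replicate block 2292 rows were called, with 3 members, 1 further complement gene, 2 inducing signals and 0 acute-phase genes. Leaving out 1 array gave 2719 to 3793 rows, 4 to 5 members, 1 to 3 further complement genes, 6 to 7 inducing signals, 1 to 2 acute-phase genes, 4 to 6 GPI-anchor genes and a member median from −0.25 to 0.15. Both ends of that range of medians were values of CFI. The number of acute-phase genes was 2 without siGFP replicate 4. The further complement genes fell to 1 when siGFP replicate 2, 3 or 4 or siESRP replicate 1, 2 or 4 was left out. Other causes were not tested. Shared rows were followed under the same alternatives, a choice made after seeing the data. The limit of 50 for a dim level was set for this text, and array background was not measured here.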
